A study of Mus musculus with 3 samples.

Results

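The genes described here are 38 genes of neuronal differentiation and neurotransmission. They were looked up by name on expression arrays of 3 gut primordia of the mouse embryo. These genes, the further gene lists and the promoter motifs below were chosen with earlier results of these data known. The share of all genes set beside a count therefore gives a scale and is no independent test. All 38 had a named probe, out of 16998 genes named on the arrays. By role they comprise 10 genes of early neuron shape and RNA binding, 3 adhesion molecules, 4 neuronal intermediate filaments, 2 transcription factors, 5 transmitter enzymes, 6 neuropeptides, 4 secretory granule proteins and 4 proteins of synaptic vesicle release.

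The study profiled the esophagus, stomach and intestine primordia of untreated ICR (outbred) mouse embryos at E11.5, counted from the vaginal plug, to follow gene activity as the gut divides into organs. Total RNA of each primordium was labelled with Cy3 and read on 1 Agilent array, so there were 3 arrays and 1 array per organ. The labels do not give genotype, sex, the number of embryos behind a sample or any pooling, and their extraction text names the stomach for each sample, so the organ was read from title and tissue. There was no replicate, hence no test, and a difference below is between these 3 RNA samples and not between organs in general.

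The neurons of the gut arise from vagal neural crest cells that enter the foregut and move down the gut wall while some already become neurons. Newborn neurons switch on a shared set of cytoskeletal and RNA-binding proteins, and then the enzymes, peptides and release machinery of a transmitter. In crest-derived autonomic neurons, homeodomain transcription factors and noradrenaline enzymes come on early, also in cells that later lose the noradrenaline enzymes. Endocrine cells of the gut and pancreas use many of the same granule proteins and peptides.

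Levels are log2 processed signals from which the 75th percentile of their own array was taken, so a level of 0 is that percentile, and a difference of 1 log2 unit is 2-fold. They compare 1 probe between arrays and not probes of different genes. Only the summed levels of marker lists add different genes, and there the brightest probes weigh most. A probe was taken as measured where most of its spots were well above background. Where only 1 array of a pair measured it, the difference is a bound, written "at least". The RNA came from whole primordia, so fewer neurons and less RNA per neuron cannot be told apart.

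All 6 stomach markers were 4-fold or more lower in intestine than in stomach. Of 6 intestine markers 5 were 4-fold or more higher in intestine than in stomach, while Cdx1 was not well above background in intestine and lay at least 2.65-fold below its stomach level (−5.57). Barx1, a transcription factor of stomach mesenchyme, had levels of 0.87, 4.43 and −4.39 in esophagus, stomach and intestine. Cdx2, the intestinal homeobox gene, was not well above background in esophagus, and its levels in the other organs were −4.37 (stomach) and 1.85 (intestine). The arrays also differed in markers of heart and liver. Of the heart markers, 6 of 6 were lower by 4-fold or more in stomach and in intestine than in the esophagus sample (median differences −6.13 and −6.96). Of the liver markers, 6 of 6 exceeded both other organs by 4-fold or more in intestine (medians 3.44 over esophagus and 4.39 over stomach). Whether heart or liver tissue was in the samples, or bears on the values of the neuronal genes, was not tested.

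Most of the neuronal genes were lowest in the esophagus primordium and, except where the arrays are scaled to the spike-in controls, similar in stomach and intestine. Of the 38, 32 were well above background on every array, 4 on none (Snap25, Vip, Tac1 and Nos1) and 2 on some arrays only (Chat and Scg2). Among the 32, the lowest of the 3 levels was that of esophagus for 21, of stomach for 3 and of intestine for 8. Over the other settings tried, esophagus was lowest for 19 (normexp correction) to 26 (spike-in scaling) of the 32. The share of all genes was computed for the main scaling alone, so these counts have no background beside them. Spike-in scaling also raised intestine over esophagus for all genes (median 1.04). Among all 12864 genes measured on every array esophagus had the lowest level for 48.3%, stomach for 17.1% and intestine for 34.7%. The 3 levels of 16 of the 32 lay within 2-fold of each other, compared with 77.3% of all genes so measured.

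**Figure D1:**
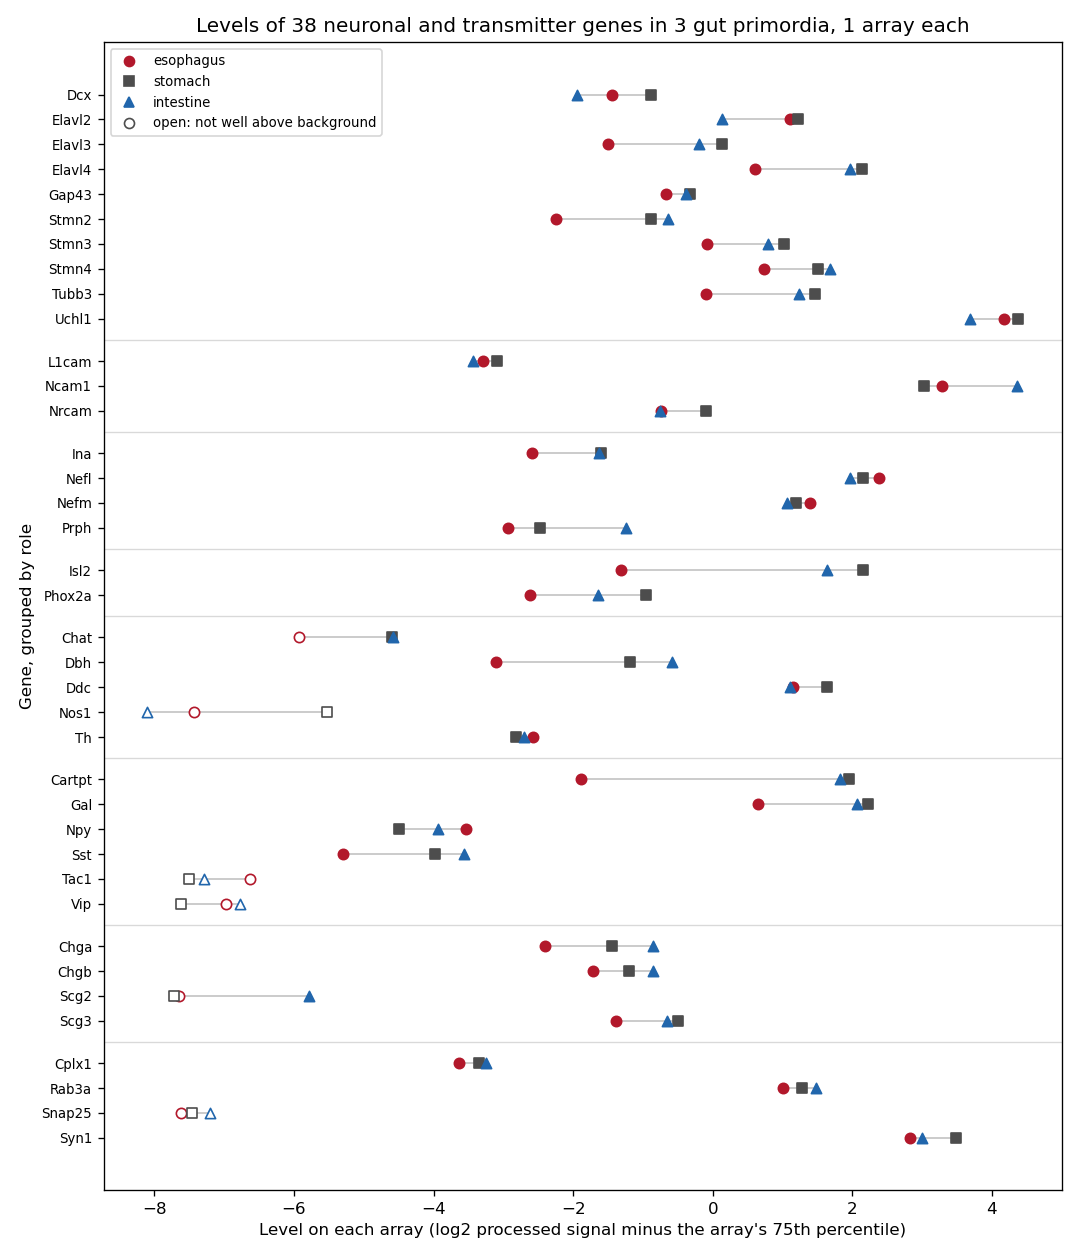
Level of each of the 38 genes on the esophagus (circle), stomach (square) and intestine (triangle) array, in log2 units over the array's 75th percentile; each point is 1 array and open points were not well above background. For 21 of the 32 genes measured on every array the circle is leftmost, most widely for Cartpt (−1.89 against 1.95 and 1.82) and Isl2 (−1.31 against 2.16 and 1.63).

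In stomach against esophagus, 33 of the 38 could be compared. Stomach exceeded esophagus by 2-fold or more for 12 of these, where it did for 4.14% of all 13737 genes compared, and lay 2-fold or more below it for 0, against 5.71% of all genes. At 4-fold, 2 were higher (all genes 0.684%) and 0 lower (all genes 1.58%). The median difference was 0.66 log2 units, beside 0.15 for all genes, and 28 values (84.8%) were above 0, as were 62% of all genes. With each array centred on its median, 15 of the 33 passed 2-fold upward and 0 downward, beside 6.92% and 4.16% of all genes.

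In intestine against esophagus, 34 were compared, and for 13 the intestine value was higher by 2-fold or more, as it was for 8.74% of all 13905 genes. None of the 34 was at least 2-fold lower, against 12% of all genes. At 4-fold, 3 were higher (all genes 1.82%) and 0 lower (all genes 3.86%). The median was 0.87, beside 0.13 for all genes, with 24 values (70.6%) above 0, as were 58.8% of all genes. This comparison depends on how the arrays are scaled. With each array centred on its median, 26.6% of all genes passed 2-fold upward and 6.79% downward, the median of all genes became 0.62 and that of the neuronal genes 1.37. With the arrays scaled to the spike-in controls the shares were 52.4% and 4.01% and the medians 1.04 and 1.80.

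In intestine against stomach, 2 of 34 passed 2-fold upward (all 13820 genes 4.96%) and 2 downward (all genes 7.47%), and none reached 4-fold, which 1.43% of all genes did upward and 1.29% downward. The median was −0.12, beside −0.02 for all genes. The neuronal genes therefore stood near the background in this comparison. Centred on the median, 2 passed 2-fold upward and 0 downward, beside 9.02% and 4.12% of all genes. Scaled to the spike-in controls the medians were 0.87 and 0.95, and 13 of the 34 passed 2-fold upward, as did 46.1% of all genes against 1.24% downward.

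The comparisons of stomach and of intestine share the esophagus array. At least 2-fold higher in both than in esophagus were 10 of the 33 neuronal genes compared in both, where 2.18% of all 13599 such genes were: Tubb3, Elavl3, Elavl4, Stmn2, Isl2, Dbh, Cartpt, Gal, Sst and Chat. None was at least 2-fold lower in both, against 4.27% of all genes. The count of 10 became 7 with normexp correction and 15 with centring on the median, where 0.608% and 4.87% of all genes passed. A low value on the 1 esophagus array enters both differences, so the pair of comparisons is not repeated evidence.

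**Figure D2:**
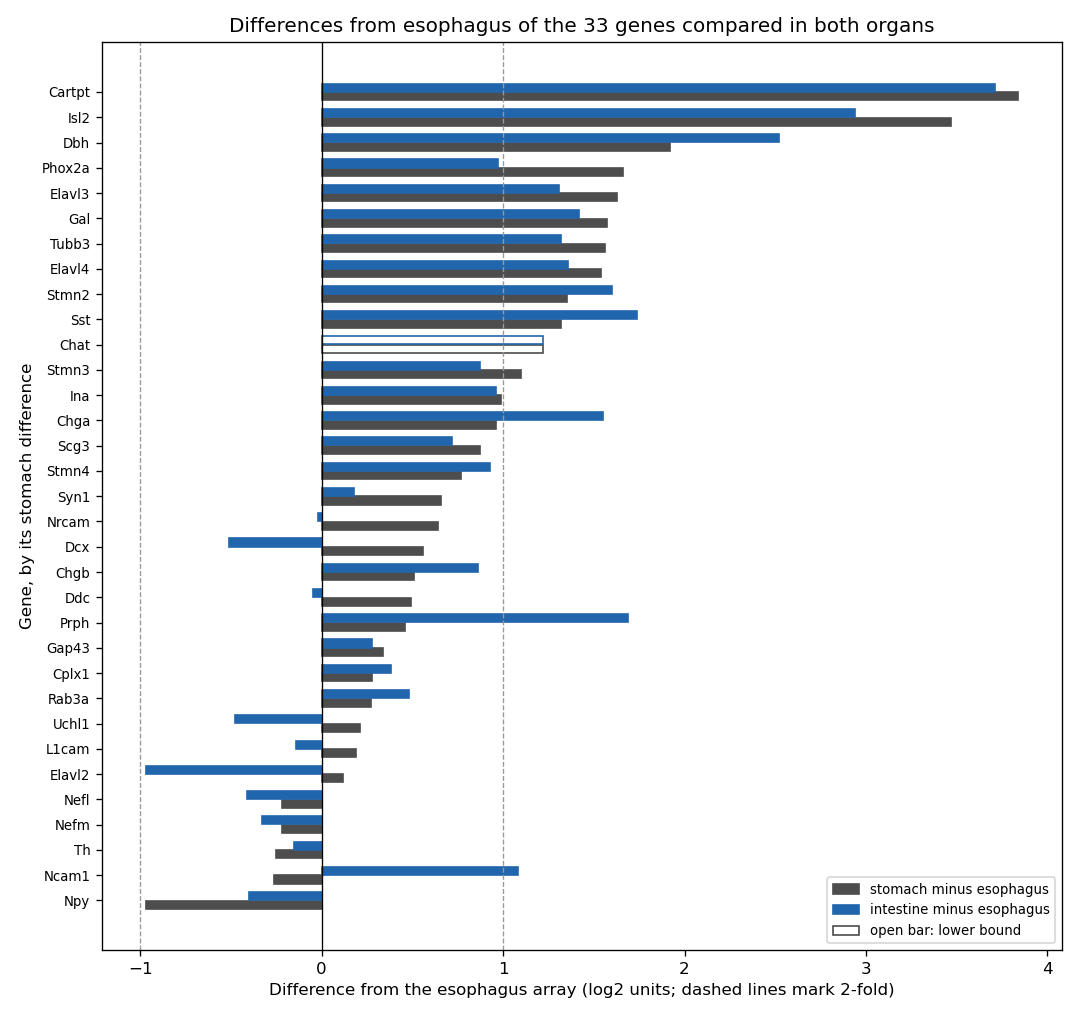
Difference from the esophagus array, in log2 units, of stomach (grey) and of intestine (blue) for the 33 genes compared in both, 1 array per organ, ordered by the stomach difference; open bars are lower bounds and dashed lines mark 2-fold. Cartpt, Isl2 and Dbh have the longest bars in both organs, while Npy, Th, Nefm and Nefl lie below 0 in both (all 4 above 0 for intestine with spike-in scaling or centring on the median, and Npy and Th with quantile normalization).

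Promoters of 6 genes of the set are shown because they hold the same short motif. Of the 10 genes that were high together 9 could be searched, and 3 of these hold it. RefSeq windows of assembly GRCm38.p6, from 250 bases before to 50 after each transcription start, matched 31 of the 38. The letters TGACGTCA, the full cAMP response element that CREB-family factors are known to bind and which reads the same on both strands, were in 7 of the 31: Cartpt, Chgb, Isl2, Scg2, Sst, Syn1 and Th. Of all 27025 genes with a window, 2.03% held them. The bases −120 to −1 of 6 of these genes follow on the coding strand, with the element in capitals.
Isl2: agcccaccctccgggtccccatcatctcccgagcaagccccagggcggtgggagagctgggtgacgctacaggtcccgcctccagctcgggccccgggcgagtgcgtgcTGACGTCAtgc
Cartpt: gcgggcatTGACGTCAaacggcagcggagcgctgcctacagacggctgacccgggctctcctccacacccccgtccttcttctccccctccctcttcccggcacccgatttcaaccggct
Sst: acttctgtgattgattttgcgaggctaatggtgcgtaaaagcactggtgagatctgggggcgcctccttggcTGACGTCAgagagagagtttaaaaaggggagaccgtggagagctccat
Th: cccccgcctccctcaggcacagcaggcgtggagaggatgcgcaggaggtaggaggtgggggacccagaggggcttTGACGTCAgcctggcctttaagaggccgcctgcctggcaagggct
Chgb: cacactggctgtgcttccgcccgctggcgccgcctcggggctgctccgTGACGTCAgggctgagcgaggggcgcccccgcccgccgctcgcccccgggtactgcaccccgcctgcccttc
Scg2: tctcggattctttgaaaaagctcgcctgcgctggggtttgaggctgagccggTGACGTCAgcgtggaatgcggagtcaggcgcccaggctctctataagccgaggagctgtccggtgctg

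These stretches are chr9:55541029-55541148 (plus strand) for Isl2, chr13:99900684-99900803 (minus) for Cartpt, chr16:23890845-23890964 (minus) for Sst and chr7:142899996-142900115 (minus) for Th. Those of Chgb and Scg2 are chr2:132781522-132781641 (plus) and chr1:79440027-79440146 (minus). The element begins at −11 in Isl2, −112 in Cartpt, −48 in Sst, −45 in Th, −72 in Chgb, −68 in Scg2 and, outside the printed stretch, −159 in Syn1. Isl2, Cartpt and Sst were among the 10 genes higher in both stomach and intestine, of which 9 had a window, whereas Th, Chgb, Scg2 and Syn1 were not among the 10. Of the other motifs searched on both strands, CAGCACC and GGACAG, the left and right parts of the RE1 element that the neuronal repressor REST binds, were in 4 and 8 of the 31 (all genes 8.14% and 24.7%). The E-boxes CAGCTG and CAGATG were in 9 and 6 (18.3% and 19.2%) and the homeodomain core TAATTA in 3 (6.12%). No match overlapped another in these windows. A match describes letters only, and says nothing about binding in these organs.

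The early neuron genes were higher in stomach than in esophagus in 10 of 10 cases, beside 62% of all genes, 5 of them at least 2-fold. In intestine 7 of the 10 were above esophagus, beside 58.8% of all genes, 4 of them at least 2-fold. Tubb3, the neuronal beta-tubulin, had levels of −0.09, 1.46 and 1.23 in esophagus, stomach and intestine. Its probe was printed 10 times per array, with SDs over spots of 0.08, 0.04 and 0.05, and the highest esophagus spot (0.03) lay below the lowest stomach (1.41) and intestine (1.16) spots. Tubb3 exceeded its esophagus level 2.94-fold in stomach and 2.5-fold in intestine, and the spots show that the step exceeds the spread within an array.

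The neuronal Elav genes, which code for RNA-binding proteins that stabilise neuronal transcripts, did not move alike. Elavl3, a pan-neuronal member, stood at −1.50, 0.13 and −0.19 in esophagus, stomach and intestine, 3.09-fold and 2.48-fold above esophagus. Elavl4, also called HuD, stood at 0.60, 2.14 and 1.96, and its other probe at −2.63, −1.36 and −1.38, so both probes put esophagus lowest. Elavl2, or HuB, stood at 1.11, 1.22 and 0.13, so that stomach exceeded intestine 2.13-fold. Its other probe read −2.60, −3.27 and −4.61, also lowest in intestine, by 1.34 log2 units below stomach and 2.01 below esophagus, although in stomach it was below esophagus by 0.66.

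Stathmins bind tubulin and make microtubules turn over in growing axons. Stmn2, found in growth cones, had levels of −2.24, −0.89 and −0.64, 2.55-fold and 3.03-fold above esophagus. Stmn3 stood at −0.08, 1.02 and 0.79 and was 2.15-fold higher in stomach. Stmn4 was 0.74, 1.51 and 1.68, short of 2-fold in both. All 3 stathmins were lowest in esophagus, and each lay within 0.25 log2 units between stomach and intestine, or up to 1.25 higher in intestine with spike-in scaling.

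Gap43, a growth cone protein, was nearly level at −0.67, −0.33 and −0.39. Dcx, the microtubule protein doublecortin of migrating young neurons, stood at −1.44, −0.88 and −1.94, with stomach 2.09-fold above intestine. Of its other probes 1 read −3.11, −3.0 and −5.60, a difference of −2.60 for intestine minus stomach, and 1 was not well above background on any array. Dcx and Elavl2 were the genes of the set that passed 2-fold downward from stomach to intestine, and with the arrays centred on the median, or scaled to the spike-in controls, neither did. Uchl1, the abundant neuronal deubiquitinase PGP9.5, stood at 4.17, 4.38 and 3.69, and its probes disagreed for intestine minus esophagus, at −0.48 and 0.56.

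The adhesion genes showed no common direction. L1cam, an axonal adhesion molecule, stayed between −3.43 and −3.09 and Nrcam, its relative, between −0.76 and −0.10. Ncam1, the neural cell adhesion molecule, stood at 3.28, 3.02 and 4.36 by the probe with the highest mean, with intestine 2.53-fold above stomach and 2.11-fold above esophagus. Its other 4 probes gave intestine minus esophagus differences of −1.30, −0.39, 0.29 and 0.32, and intestine minus stomach differences from −0.17 to 0.55. The 2-fold size of the Ncam1 difference in intestine thus rests on 1 probe of 5.

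Of the intermediate filament genes, which code for the proteins of the neuronal cytoskeleton, 2 were nearly level and 2 were lowest in esophagus. The neurofilament genes Nefl (2.38, 2.16 and 1.97) and Nefm (1.40, 1.19 and 1.07) were highest in esophagus by at most 0.41 log2 units, but in intestine they were above esophagus by 0.53 and 0.60 with spike-in scaling and by 0.09 and 0.17 with centring on the median. Prph, coding for peripherin, the filament of peripheral neurons, stood at −2.94, −2.47 and −1.24. Its intestine level was 3.23-fold that of esophagus and 2.35-fold that of stomach, so intestine alone was high, but with normexp correction the differences were 0.88 and 0.52 log2 units, short of 2-fold. Ina, coding for alpha-internexin of young neurons, stood at −2.59, −1.60 and −1.63, short of 2-fold on both sides by a small margin (1.99-fold and 1.94-fold).

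Both transcription factors were higher in stomach. Isl2, a LIM-homeodomain factor of motor, sensory and other neurons, had levels of −1.31, 2.16 and 1.63. These are 11.1-fold and 7.68-fold above esophagus, the second largest difference of the set in each, and it was never below 2.66 log2 units under every scaling and background setting tried. Phox2a, the homeodomain factor of autonomic neurons, stood at −2.62, −0.95 and −1.65, 3.16-fold higher in stomach and 1.95-fold higher in intestine.

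The enzymes of catecholamine synthesis did not move together. Th, tyrosine hydroxylase, which makes L-DOPA in the first and rate-limiting step, was flat at −2.57, −2.82 and −2.71 over 10 spots per array (SDs 0.07, 0.13 and 0.09). Ddc, the decarboxylase that makes dopamine, stood at 1.15, 1.64 and 1.1, and its other probe at −1.47, −1.31 and −2.05. Dbh, the hydroxylase that turns dopamine into noradrenaline, stood at −3.11, −1.19 and −0.59, 3.79-fold above esophagus in stomach and 5.74-fold in intestine. Within the pathway, Dbh was thus the enzyme that differed by more than 2-fold, with esophagus low on its own.

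Chat, which makes acetylcholine, was not well above background in esophagus (−5.93), and stood at −4.59 in stomach and −4.58 in intestine. It was at least 2.33-fold higher in each than in esophagus, but close to the detection limit, and its other probe was not well above background on any array. Nos1, the neuronal nitric oxide synthase, was not well above background on any array, with 5 of its 10 stomach spots above it and 0 of 10 in the other organs.

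Among the neuropeptides Cartpt, the precursor of the CART peptides, showed the largest difference of the set in both comparisons with esophagus. Its levels of −1.89, 1.95 and 1.82 put stomach 14.3-fold and intestine 13.1-fold above esophagus. Its other probe read −2.27, 1.58 and 1.53, with differences of 3.85 and 3.80 where the first probe had 3.84 and 3.71, so both probes gave nearly the same step. Under normexp background correction, which shrinks differences of dim probes, Cartpt was still 3.11 log2 units higher in stomach and 3.08 higher in intestine.

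Gal, the precursor of galanin, stood at 0.65, 2.22 and 2.07, 2.98-fold and 2.67-fold above esophagus. Sst, the precursor of somatostatin, which enteric neurons and endocrine D cells both make, was dim at −5.30, −3.98 and −3.56. Its esophagus spots spread widely (SD 0.23, 7 of 10 well above background), against SDs of 0.13 and 0.06 in stomach and intestine. It was 2.49-fold higher in stomach and 3.33-fold higher in intestine, but normexp correction gave 0.40 for stomach and turned the intestine value to −0.13 log2 units. Npy, coding for neuropeptide Y of sympathetic and enteric neurons, went the other way, at −3.53, −4.50 and −3.94, with stomach 1.96-fold below esophagus (a difference of −0.97, and −0.14 with normexp). Vip and Tac1, the precursors of vasoactive intestinal peptide and substance P, were not well above background on any array.

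The granins and their relatives load dense-core secretory granules. Chga, coding for chromogranin A, stood at −2.41, −1.44 and −0.86, 1.95-fold and 2.93-fold above esophagus. Chgb stood at −1.71, −1.20 and −0.85 and Scg3 at −1.38, −0.50 and −0.66, each lowest in esophagus and under 2-fold. Scg2 was well above background in intestine only (−5.78), with bounds of at least 1.02-fold over esophagus and 1.04-fold over stomach. Of the 3 granule genes measured everywhere, each was thus lowest in esophagus, and intestine was highest for both chromogranins.

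The measured genes of the release machinery were within 2-fold between organs, except with spike-in scaling. Syn1, coding for synapsin I on synaptic vesicles, stood at 2.82, 3.48 and 3.0. Rab3a, the vesicle GTPase, stayed between 1.01 and 1.48, and Cplx1, coding for complexin 1, between −3.63 and −3.25. Snap25, a core fusion protein, was not well above background on any array. With spike-in scaling intestine exceeded esophagus by 1.41 log2 units for Rab3a, 1.32 for Cplx1 and 1.11 for Syn1.

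**Figure D3:**
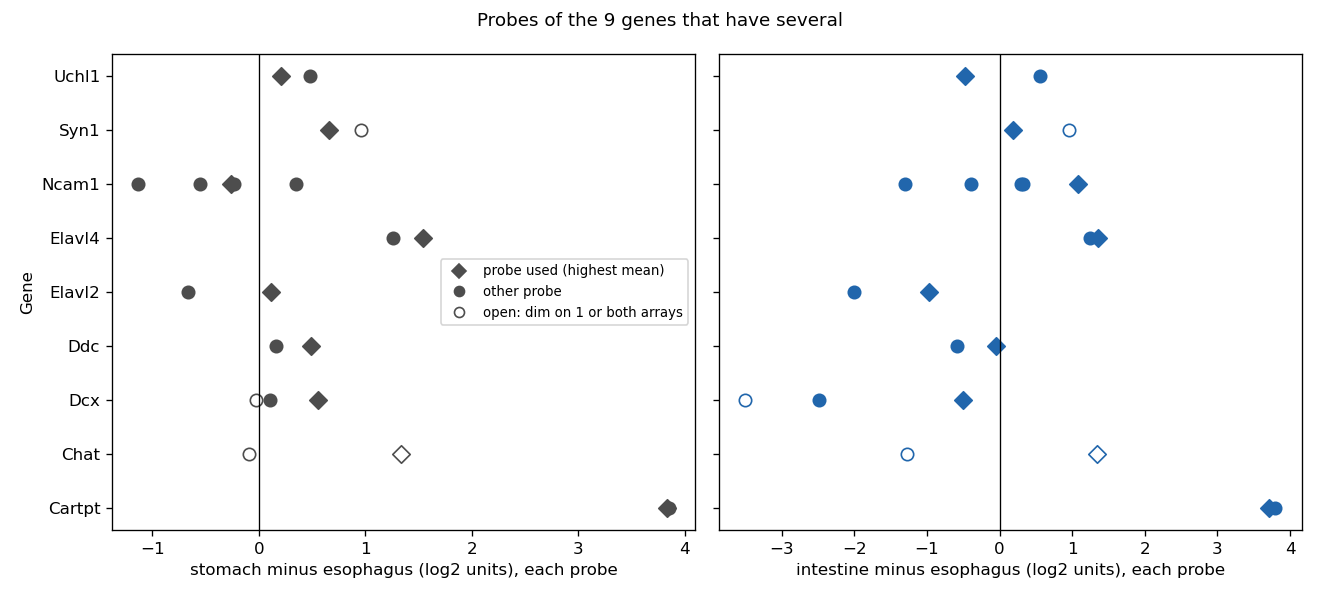
Difference of stomach (left) and of intestine (right) from esophagus for each probe of the 9 neuronal genes with several probes, in log2 units; diamonds are the probes used, circles the others, and open symbols were not well above background on an array of the pair. The Cartpt probes and the Elavl4 probes lie close together and all above 1, whereas the 5 Ncam1 probes spread from −1.30 to 1.08 for intestine.

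Genes measured by several probes give the spread that these arrays can show. Over all such genes the median SD between probes of a gene was 0.25 log2 units for stomach minus esophagus, 0.46 for intestine minus esophagus and 0.31 for intestine minus stomach. The SD over repeated spots within an array was smaller, with a median of 0.073 to 0.083. Neither covers the spread between embryos. Over the 6 other scaling, background and source settings, Tubb3, Elavl3, Elavl4, Isl2, Phox2a, Dbh, Cartpt and Gal kept a stomach value of 2-fold or more over esophagus, while Stmn2, Stmn3, Sst and Chat fell short under at least 1. For intestine over esophagus Tubb3, Elavl3, Elavl4, Stmn2, Isl2, Dbh, Cartpt and Gal kept 2-fold under all of them and Chat under those that gave it a value, while Ncam1 (lowest 0.93), Prph (0.88), Chga (0.91) and Sst (−0.13) fell short under at least 1.

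Other genes of neurons, taken from lists, passed 2-fold upward in stomach more often than downward. Of 36 further neuronal genes compared, 9 passed 2-fold upward and 1 downward from esophagus to stomach (median 0.27), where 4.14% and 5.71% of all genes did. From esophagus to intestine 9 and 6 passed (median 0.12), where 8.74% and 12% of all genes did. With normexp correction the counts were 2 and 0 of 35 for stomach (all genes 1.19% and 2%). For intestine they were then 3 and 5 of 34 (median −0.19, all genes 4.91% and 13.1%). Centred on the median, 14 and 2 of 36 passed for intestine, beside 26.6% and 6.79% of all genes. With spike-in scaling 18 and 1 of 37 did, beside 52.4% and 4.01% of all genes. Tagln3, a neuronal calponin-family gene, stood at −1.33, 0.24 and 1.12. The nicotinic receptor genes Chrna3 and Chrnb4, whose products form the receptor of autonomic ganglia, were not well above background in esophagus, and were at least 2.24-fold and 3.64-fold higher in stomach and 3.09-fold and 2.68-fold higher in intestine. Map1b, a microtubule protein of growing axons, was 5.19-fold below its esophagus level in intestine, so not all neuronal genes were lowest in esophagus.

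Of 13 transcription factors of autonomic neurons compared, 5 passed 2-fold upward and 0 downward from esophagus to stomach (median 0.62, all genes 4.14% and 5.71%). To intestine 4 and 1 passed (median 0.12, all genes 8.74% and 12%). With normexp correction the counts were 2 and 0 (all genes 1.19% and 2%), and 1 and 1 (median −0.27, all genes 4.91% and 13.1%). With spike-in scaling 7 and 0 of 13 passed to intestine, beside 52.4% and 4.01% of all genes, so the upward count was near the background. Hand2, needed for noradrenergic and enteric neurons, stood at −0.26, 1.55 and 1.75, and is also a gene of gut mesenchyme. The zinc finger gene St18 in stomach and intestine was 5.52-fold and 3.35-fold above esophagus.

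Other genes of transmitter synthesis, transport and peptides gave counts that depended on the settings. Of 19 compared, 2 passed 2-fold upward and 7 downward from esophagus to stomach (median −0.20, all genes 4.14% and 5.71%). Of 22, 2 and 6 passed from esophagus to intestine (median −0.54, all genes 8.74% and 12%). With normexp correction the stomach counts were 0 and 0 of 18 (median −0.01, all genes 1.19% and 2%). The intestine counts were then 0 and 9 of 18 (all genes 4.91% and 13.1%). For intestine the counts were 5 and 5 with quantile normalization, and again 5 and 5 with centring on the median (all genes 26.6% and 6.79%). Spike-in scaling gave 8 and 5 (all genes 52.4% and 4.01%), with a median of 0.39, beside 1.04 for all genes. In the main scaling the genes that passed upward to stomach were Slc18a1 (at least 2.09-fold) and Penk (2-fold). To intestine they were Slc18a1 (at least 2.63-fold) and Adcyap1 (at least 3.77-fold). Among those that passed downward, Calca, which codes for calcitonin and CGRP, was 4.76-fold and 4.19-fold lower in stomach and intestine. Gad2, a GABA-making enzyme, was at least 4.26-fold and 9.39-fold lower. Calcb, coding for beta-CGRP, was measured in esophagus only, and was at least 2.21-fold and 4.88-fold lower in the other organs.

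**Figure D4:**
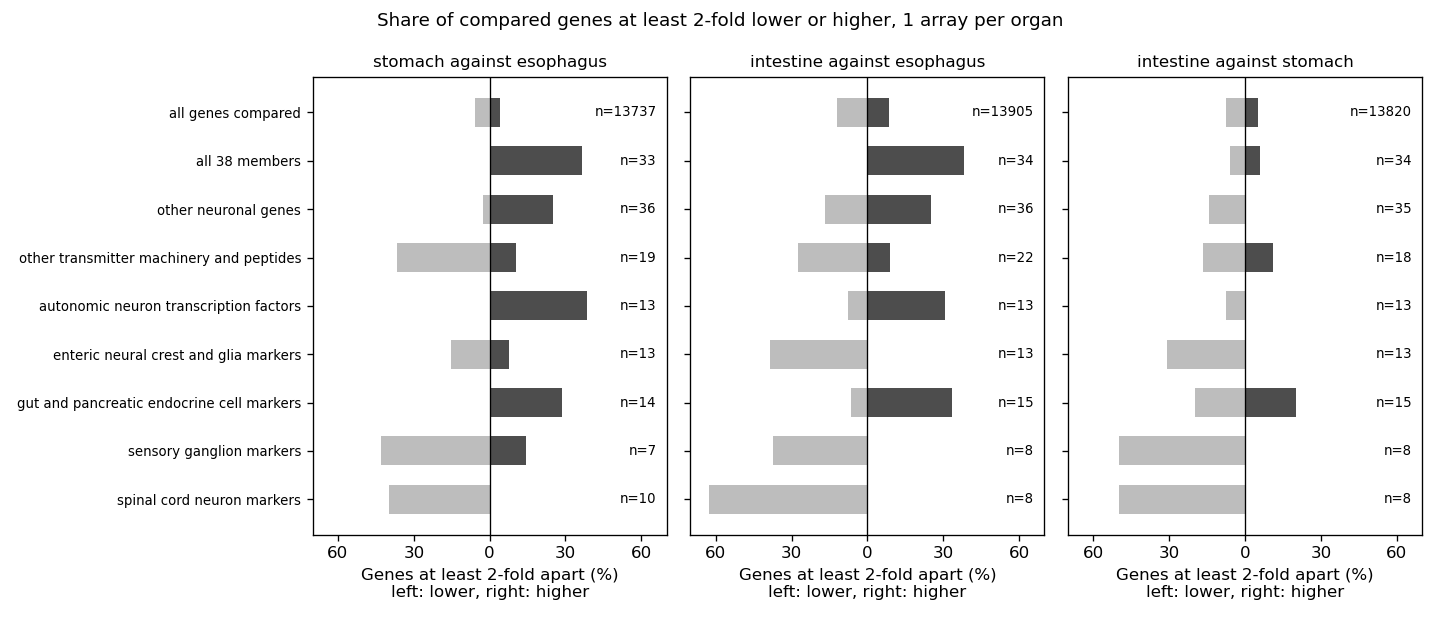
Share of compared genes at least 2-fold lower (left, light) or higher (right, dark) in each comparison, for all genes, the 38 neuronal genes and the marker lists; n is the number of genes compared and each organ is 1 array. For stomach against esophagus the neuronal genes have 12 of 33 on the higher side and 0 on the lower, and for intestine against stomach 2 on each.

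Markers of the cells that share these genes also differed between arrays. Of 13 enteric crest and glia genes, 1 passed 2-fold upward and 2 downward from esophagus to stomach (all genes 4.14% and 5.71%). To intestine 0 and 5 passed (all genes 8.74% and 12%), and 4 and 2 with spike-in scaling (all genes 52.4% and 4.01%). The summed levels of the 13 were 22.1, 18.2 and 15.2 times the 75th percentile. Without Ednrb, which adds most over the 3 arrays together, they were 11.6, 13.1 and 11.1. All 13 were well above background on each array. Ret, the GDNF receptor of enteric progenitors and neurons, stood at −4.67, −2.73 and −3.99, and S100b, a glial gene, in intestine was 14.3-fold below esophagus. The median difference of the crest and glia genes was 0.03 for stomach and −0.54 for intestine, beside 0.66 and 0.87 for the neuronal genes.

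Markers of endocrine cells, which share Chga, Chgb, Scg2, Scg3 and Sst with neurons, summed to 10.2, 21.8 and 18.8 times the 75th percentile, with 13, 14 and 18 of 20 well above background. Without Cpe, which adds most over the 3 arrays together, the sums were 7.21, 17.8 and 10.2. These sums still hold Cck, which in stomach (3.14) adds more than Cpe (1.97). From esophagus to stomach 4 of 14 passed 2-fold upward and 0 downward (median 0.52, all genes 4.14% and 5.71%). To intestine 5 and 1 of 15 did (all genes 8.74% and 12%), with a median of 0.36, and −0.27 with normexp correction. Cck, a gut hormone gene, in stomach and intestine was 6.69-fold and 3.57-fold above esophagus. Neurog3, which starts the endocrine program, was not well above background in esophagus and stood at −5.32 in stomach and −5.44 in intestine, and Neurod1 was not well above background on any array. The part of endocrine cells in the values of the granule genes and Sst was not tested.

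Markers of neurons outside the gut had stomach minus esophagus medians of 0.06 (7 sensory ganglion genes) and 0.04 (10 spinal cord genes). Yet 1 sensory gene passed 2-fold upward and 3 downward, and 0 and 4 spinal cord genes did (all genes 4.14% and 5.71%). With normexp correction the counts were 0 and 1 for each list (all genes 1.19% and 2%). Between intestine and esophagus the medians were −0.56 and −2.43, over 8 genes each. There 0 sensory genes passed upward and 3 downward, and 0 and 5 spinal cord genes did (all genes 8.74% and 12%). With spike-in scaling the intestine medians were 0.38 and −0.92, both below the 1.04 of all genes. The sensory ganglion genes summed to 1.92, 1.04 and 0.496, with 6, 7 and 8 of 10 well above background, and the spinal cord genes to 6.76, 2.97 and 0.516 times the 75th percentile, with 8, 8 and 7 of 14. Without the gene that adds most to each list over the 3 arrays together (Ntrk2 and Nkx6-1) the sums were 1.04, 0.74 and 0.435, and 0.994, 0.874 and 0.232. Pou4f1, a sensory neuron factor, stood at −1.71, −1.65 and −2.29. The motor neuron gene Mnx1, which is also active in gut endoderm, stood at −0.95, −0.69 and −3.95, and Olig2, of the ventral spinal cord, was well above background in stomach only (−5.33). Their part in the levels of Isl2, Prph and the neurofilament genes was not tested.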

How the data were processed

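RNA of the esophagus, stomach and intestine primordia was measured on 1 one-colour Agilent array each. The deposited scanner files hold spot intensity values from Agilent Feature Extraction 10.5.1.1, background-subtracted and detrended within the array but not scaled between arrays, per the file headers. A deposited table of log2 values, with medians of −2.97, −3.17 and −3.47, matched log2 of the scanner signal minus a constant per array within 0.01 for 99.8% to 99.9% of 41112 probes, and served as an alternative.

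The value used was log2 of the processed intensity minus the array's 75th percentile (393, 334 and 1023 in esophagus, stomach and intestine) over the 43379 spots that were not controls. Outlier spots (111, 70 and 77) were left out, no spot was saturated, and spots of a probe were averaged. Of the spots, 69.3%, 67.9% and 74% were well above background, and the lowest such signal lay at −5.81, −5.84 and −6.98. With 1 array per organ, the number of arrays limits the precision.

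Names came from the accession that the scanner files give for a probe, looked up without its version among RefSeq transcripts (GRCm38.p6), and 24342 probes had 1 symbol. For the 5768 genes with 2 or more probes, 9 of the 38 among them, the probe with the highest mean was used. Differences were computed where at least 1 array of a pair was well above background. Where 1 array was dim, the bound used its detection limit (the lowest well-above-background signal) or the dim probe's own value, whichever was higher. A bound below 1-fold was dropped. Genes at least 2-fold or 4-fold apart were counted, without tests. The counting was tested on simulated data with known differences.

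A neuronal gene is given on all 3 arrays where it was 2-fold apart anywhere or its probes disagreed. Of the genes dim anywhere, Chat is given so too. The dim levels of Scg2, Snap25, Vip, Tac1 and Nos1 are left out of the text. From the other lists, up to 4 genes with the largest differences per comparison, up to 2 bounds and the defining markers could be named. Tagln3, Map1b, Hand2, St18, Calca, S100b and Cck met this rule. Slc18a1, Penk and Adcyap1 were named outside it, so that both directions of their list appear. Sox10 had no named probe, and some genes that met the rule are not reported here. The 38 genes, the lists and the motifs were chosen with earlier results of these data known.

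Alternatives were normexp correction (limma 3.58.1 in R 4.3.3, offset 50), quantile normalization, other centrings, other filters on dim probes and the mean over a gene's probes. Sums without their largest gene, and these settings for the other lists, were added after seeing the data. Python 3.11.15 with numpy 2.4.6 and pandas 2.3.3 was used for the rest.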

Additional observations from a re-analysis of the deposited data

How the results depend on the processing

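The number of neuronal genes for which stomach exceeded esophagus by 2-fold or more was 12, and lay between 8 (normexp correction) and 15 (quantile normalization, or centring on the median). The number 2-fold or more below was 0, and 1 with the 75th percentile taken over probes measured on all arrays or with spike-in scaling. For intestine against esophagus the median of 0.87 became 0.40 with normexp, 1.37 with centring on the median and 1.80 with spike-in scaling, where the median of all genes was 0.00, 0.62 and 1.04. The 13 higher genes became 23 with spike-in scaling. The 0 lower genes became 1 with quantile normalization, 1 with the percentile over measured probes and 2 with the mean over a gene's probes. For intestine against stomach the median of −0.12 became 0.87 with spike-in scaling. The 2 higher genes became 1 with normexp, 13 with spike-in scaling and 1 with the mean over probes, and the 2 lower became 1 with quantile normalization and 0 with centring on the median or spike-in scaling. Sst turned to −0.13 for intestine minus esophagus with normexp. The cause was not tested for any of these.

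The spike-in controls lay 3.79, 3.86 and 2.86 log2 units above the 75th percentile in esophagus, stomach and intestine, so values that include intestine shift by about this step when scaled to them. No paired analysis was possible because each organ has 1 array and no replicate. For the same reason leaving out a replicate was not run. Signal over background limits Chat, Sst and Scg2, and the 4 genes dim on every array have no difference here.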
